A study of Mus musculus with 2 samples.

Results

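Neutrophils of subcutaneous mouse tumours were chosen by gene expression from 16187 kept cell barcodes, and 92 barcodes met the rule. In a neutrophil, S100a8 and S100a9 together held at least 0.5% of the UMIs (unique molecular identifiers, 1 per captured RNA molecule), and at least 1 UMI of Csf3r, Cxcr2, Retnlg or G0s2 was present. C1qa, C1qb and C1qc together had to stay under 0.1% of the UMIs, and Cd3d, Cd3e, Cd3g and Krt20 had to be at 0. A floor of 200 genes and a ceiling of 20% mitochondrial UMIs defined the kept barcodes. Because these genes chose the cells, their levels are given as a description only.

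The tumours came from mice on a diet without serine and glycine (SG-free) and from mice on a control diet, with 1 10x Genomics library per diet. The series title places the work in the question of how the SG-free diet acts on antitumour immunity and on PD-L1, the protein of the Cd274 gene. Mouse strain, sex, age, tumour line, time on the diet and the number of mice pooled into a library are not given in the sources used here. The labels' extraction text describes human heart tissue, while organism, source and design name mouse tumours, and the gene symbols are those of the mouse. With 1 library per diet no difference between diets could be tested, and animal, library and diet cannot be told apart. All intervals are exact 95% intervals that cover counting error only.

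Neutrophils are short-lived granulocytes that are made in the bone marrow, leave it under the control of Csf3r and Cxcr2, and are drawn into inflamed tissue and tumours by CXC chemokines. Their granule proteins are made in marrow precursors, so a mature cell carries little RNA, much of it for S100a8 and S100a9, the subunits of the antimicrobial protein calprotectin. Within tumours, neutrophils are known to make interleukin-1 and chemokines, to respond to interferon, and in some states to carry PD-L1.

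The SG-free library held 52 neutrophils among 7918 kept barcodes, a share of 0.657% (0.491 to 0.860%). The control library held 40 among 8269, a share of 0.484% (0.346 to 0.658%). The ratio of the shares was 1.36, with an interval of 0.882 to 2.10 that includes equal shares. The shallowest deposited barcode held 502 UMIs in the SG-free library and 500 in the control library, and the shallowest neutrophil held 525 and 515. Neutrophils below that depth, if any, are not counted here. Whether such a limit took unequal parts of the 2 libraries was not tested. A floor of 500 genes per barcode in place of 200 left 25 neutrophils in the SG-free library and 4 in the control library, so most of these cells lie below a floor often used for larger cells.

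These were shallow barcodes. The median neutrophil held 1037 UMIs and 486 genes in the SG-free library, against 773 UMIs and 404.5 genes in the control library. Macrophages, taken as barcodes with C1q genes at 0.5% of UMIs or more, held medians of 10750 and 9862 UMIs in the same 2 libraries. Mitochondrial transcripts made up a median 0.103% of a neutrophil's UMIs in the SG-free library and 0.0968% in the control library, while the median over all deposited barcodes was 2.06% and 1.87%. S100a8 and S100a9 together took a median 5.66% and 5.31% of a neutrophil's UMIs, and up to 22.6% and 16.4%. The SG-free members nearest to the threshold held 0.711, 0.838 and 1.15%, and the control members held 0.524, 0.559 and 0.705%. The barcodes nearest below it, which met every other part of the rule, held 0.310, 0.217 and 0.0704% in the SG-free library and 0.296, 0.158 and 0.111% in the control library.

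The SG-free neutrophils fell into 2 ranges of depth. The 5 deepest held 18006, 11816, 4085, 3762 and 2816 UMIs, the next held 1544, and the deepest control neutrophil held 1272. These 5 barcodes carried 46.6% of all 86910 neutrophil UMIs of the SG-free library. Their S100 share was low, between 0.711 and 1.42%, and ribosomal protein genes made up 22.5% of their UMIs, against 2.01% in the other 47 SG-free neutrophils and 2.17% in the control neutrophils. They also carried RNA that the other 47 SG-free neutrophils hardly held. Spp1, a secreted phosphoprotein, was at 122, 67, 34, 39 and 21 UMIs, the metallothionein Mt1 at 126, 65, 20, 31 and 14 UMIs, and the fibronectin gene Fn1 at 23, 14, 8, 13 and 4 UMIs. The 40 control neutrophils had 35 Spp1 UMIs, in 10 cells. In the 5 deepest barcodes Ptprc, the leukocyte surface protein CD45, was at 2, 0, 0, 1 and 0 UMIs. Whether these barcodes hold more than 1 cell was not tested, since no doublet caller was run. Results below are therefore for the 47 SG-free and 40 control neutrophils with up to 2500 UMIs, a limit set after the data were seen, unless all members are named. Most ratios between diets that cross equality or move by over 1.5 times with all members are given both ways. Folds of single genes over macrophages and monocytes are given for this set only.

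**Figure D1:**
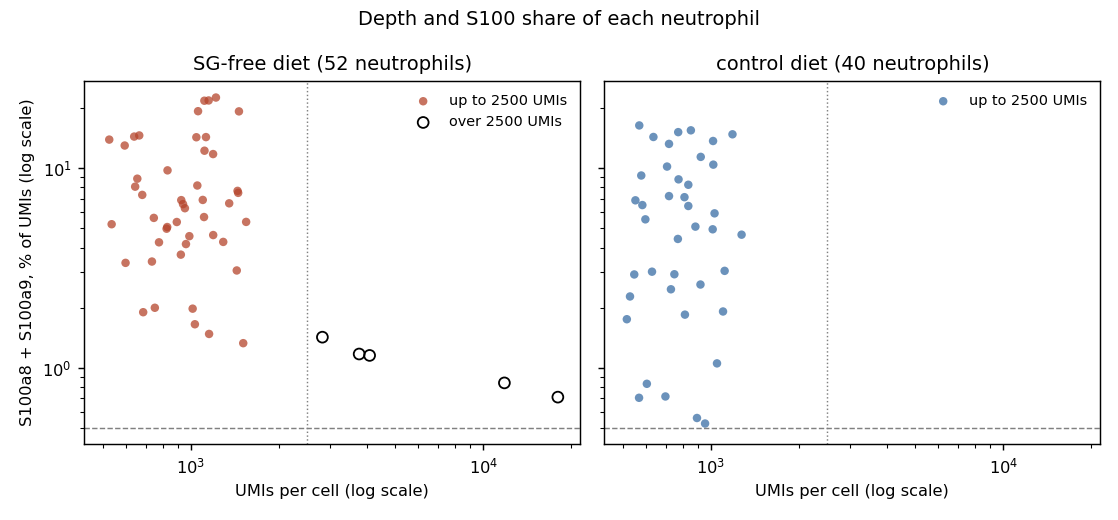
Each point is 1 neutrophil, placed by its UMIs (x axis, log scale) and by the percent of its UMIs from S100a8 and S100a9 (y axis, log scale), with the SG-free library left and the control library right. The dashed line is the threshold of 0.5% and the dotted line marks 2500 UMIs; the 5 open circles, at 2816 to 18006 UMIs and 0.711 to 1.42%, all lie in the SG-free library.

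Markers of other cells were then counted. The rule itself held Cd3d, Cd3e, Cd3g and Krt20 at 0 and the C1q genes low, so the T cell, epithelial and macrophage lists are in part fixed by it. In the 47 SG-free and 40 control neutrophils, the marker lists for dendritic, T, NK, B, mast and endothelial cells had 0 UMIs. The 9 macrophage markers summed to 14 UMIs in the SG-free neutrophils and 16 in the control neutrophils, which is 302 and 499 counts per 1000000 (CPM), against 1342 and 1170 over all other kept barcodes. The 8 monocyte markers had 2 and 12 UMIs and the 7 fibroblast and matrix markers had 0 and 3. Across all members the same 2 lists had 67 and 90 UMIs in the SG-free library, the rest of which lay in the 5 deep barcodes. Among eosinophil markers, Siglecf had 1 UMI in an SG-free neutrophil. T cell receptor contigs were found for 0 of 52 and 0 of 40 neutrophils, which allows shares of up to 5.77% and 7.5% if 3 counts are taken as the limit, while 90.3% of SG-free and 92.3% of control T cells had one. The 2 libraries shared 104 barcode sequences, 2 of them neutrophils in 1 library, and none was a neutrophil in both.

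A few genes of a library came mostly from these rare barcodes. The 47 SG-free neutrophils carried 80.01% of all S100a9 UMIs of their library and the 40 control neutrophils carried 71.8% of theirs. For the chemokine receptor gene Cxcr2 the shares were 80.9% and 55.7%, and for G0s2, an inhibitor of fat breakdown, 77.4% and 70.5%. S100a9, Cxcr2 and G0s2 chose the cells, so their shares are a description only. Csf3r, which also chose the cells, had only 25.1% and 23.3% of its UMIs in neutrophils. Il1f9, the interleukin-36 gamma gene that the rule did not use, had 77.8% and 83.3% of its UMIs in neutrophils. The share was smaller for genes that other cells also express: 12.6% and 8.59% for Il1b, 6.17% and 4.63% for Cxcl2, and 1.31% and 0.79% for Cd274.

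Neutrophils were set against macrophages of the same library. Of 11410 genes measured, 382 (3.35%) were at least 4-fold higher in neutrophils in both libraries and 1304 (11.4%) at least 4-fold lower. With all members the shares were 2.42% and 3.92% of 11426 genes. The rule separates the same cells, so these counts describe them and support nothing. Of the 1304, 1002 had no UMI in the neutrophils of either library, and only 201 genes were at least 4-fold lower in both when each neutrophil sum was set to no less than 3 counts. Il1r2, a decoy receptor for interleukin-1, stood at 4179 CPM in SG-free neutrophils against 2.65 in SG-free macrophages, and at 2465 against 3.89 in the control library. Hdc, which makes histamine, stood at 4157 against 4.67 in the SG-free library and at 3214 against 2.09 in the control library. Stfa2l1, a stefin protease inhibitor of a family with near-identical copies whose counts are uncertain, was at least 1707-fold higher than in SG-free macrophages and at least 2781-fold higher than in control macrophages, where it had no UMI. The transcriptional repressor Mxd1 was 83.6-fold (66.6 to 105) and 143-fold (108 to 188) higher, and Slfn4, an interferon-induced gene of myeloid cells, 95.3-fold (77.3 to 117) and 82.7-fold (64.2 to 106).

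Genes of macrophage identity were at or near 0 in the neutrophils. Apoe, which carries lipids, had 0 UMIs in the 47 SG-free neutrophils and 1 in the 40 control neutrophils, against 5184 and 3803 CPM in macrophages. The chemokine gene Ccl8 had none in either library and was at least 66.2-fold lower in the SG-free library and at least 28.9-fold lower in the control library. Cd74, the invariant chain of class II presentation, stood at 108 against 9080 CPM in the SG-free library and at 62.4 against 2400 in the control library. Arg1, the arginase of suppressive myeloid cells, had 0 UMIs in neutrophils of both libraries against 414 and 364 CPM in macrophages, and Nos2, which makes nitric oxide, also had none. The limit that a count of 0 allows was 64.6 CPM in the SG-free neutrophils and 93.6 in the control neutrophils, which is above the Nos2 level of macrophages (24.9 and 5.84).

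Monocytes, the circulating cells most like neutrophils in origin, were taken as barcodes with Ly6c2 and with Ccr2 or Lyz2 UMIs and without C1q or high S100 shares, so these genes are not compared. Of 8117 genes measured, 232 (2.86%) were at least 4-fold higher in neutrophils in both libraries and 1031 (12.7%) lower. The shares with all members were 1.86% and 3.82% of 8227 genes. Il1b stood 12.5-fold (11.3 to 13.9) above monocytes in the SG-free library and 12.2-fold (11.1 to 13.4) in the control library, and Cxcl2 stood 9.17-fold (8.44 to 9.96) and 9.16-fold (8.36 to 10.03) above them. Cd274 stood 5.49-fold (4.16 to 7.16) and 4.32-fold (2.77 to 6.47) above monocytes. Each fold compares shares of UMIs, not UMIs per cell. With all members the SG-free levels were 7928 CPM for Il1b, 10459 for Cxcl2 and 886 for Cd274. Without the 5 deep barcodes they were 13721, 19128 and 1594, so the SG-free folds were lower with all members.

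**Figure D2:**
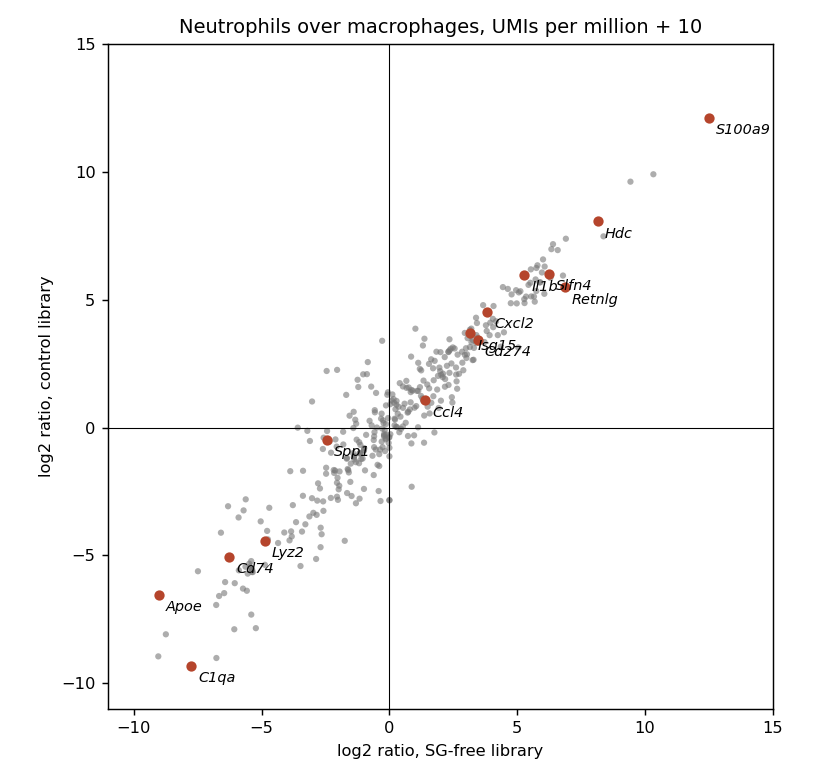
Each point is 1 gene of the lists or of the extremes, placed by its log2 ratio of neutrophils up to 2500 UMIs over macrophages in the SG-free library (x axis) and in the control library (y axis), from CPM + 10. S100a9 sits highest at 12.49 and 12.10, Cd274 lies above 3 in both libraries, and Apoe and Cd74 lie below -5 in both.

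The granule genes were those of mature cells. The 8 primary granule genes, made in promyelocytes, had 2 UMIs in the SG-free neutrophils and 0 in the control neutrophils, with Mpo and Elane at 0 in both. The 16 secondary and tertiary granule genes summed to 180 and 138 UMIs, which is 3877 and 4306 CPM. Hp had 46 and 50 UMIs, Lcn2, which binds bacterial siderophores, 32 and 12, Pglyrp1 20 and 15, and Anxa1 16 and 23. Mmp9, a gelatinase, had 16 and 5 UMIs, and Ltf, lactoferrin, 2 and 3. Retnlg, a resistin-like gene of blood neutrophils that the rule used, had 53 UMIs in 11 SG-free cells and 14 UMIs in 6 control cells, with 21 of the 53 in 1 cell. The proliferation list had 3 UMIs in the SG-free neutrophils and 3 in the control neutrophils.

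The interleukin-1 gene Il1b and the chemokine gene Cxcl2, which the rule did not use, were found in most neutrophils. Other chemokine genes were found in fewer: Ccl3 in 28 SG-free and 19 control cells, Ccl4 in 23 and 14, and Cxcl3 in 10 and 6. Il1b, the interleukin-1 beta gene, was found in 45 of 47 SG-free cells, with 0 to 36 UMIs per cell and a median of 13, and in 39 of 40 control cells, with 0 to 49 and a median of 7. Summed, it stood at 13721 and 17350 CPM, which was 39.9-fold (36.5 to 43.6) and 64.7-fold (58.7 to 71.2) above macrophages of the same library. Cxcl2, which draws neutrophils through Cxcr2, was found in 41 SG-free and 30 control cells. It stood at 19128 and 17849 CPM, 14.2-fold and 23.3-fold above macrophages. With all members the SG-free levels were 7928 CPM for Il1b and 10459 for Cxcl2, so their SG-free folds were lower. Thinned to 500 UMIs per cell, 89.4% of SG-free and 87.5% of control neutrophils kept an Il1b UMI, against 0.222% and 0.716% of non-immune cells (medians of 19136.5 and 20451 UMIs before thinning). Such a low share in non-immune cells is the level that RNA free in the suspension and stray cells could give. Before thinning 95.7% and 97.5% of neutrophils had one. Ptgs2, the inducible cyclooxygenase, was 26.2-fold (19.3 to 35.1) and 69.5-fold (47.3 to 100.2) above macrophages.

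For the comparison between diets, UMIs were summed over the neutrophils of a library and expressed as CPM, and genes with at least 20 UMIs over both libraries were measured. Among all 92 neutrophils, 210 of 887 genes (23.7%) were at least 2-fold higher in the SG-free library and 138 (15.6%) at least 2-fold lower. Without the 5 deep barcodes, 42 of 625 genes (6.72%) were at least 2-fold higher and 34 (5.44%) lower. The counts of the gene lists below stand beside these shares over all genes. Of the 210 genes higher with all members, 155 had at least 80% of their SG-free UMIs in the 5 deep barcodes and 75 encode ribosomal proteins. The 2 sets of cells had 10 higher and 25 lower genes in common. A summed level does not tell apart fewer cells with the RNA and less RNA per cell.

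The top of the ranking with all members came from the 5 deep barcodes. Mt1 had 261 UMIs in the SG-free neutrophils and 0 in the control neutrophils, at least 32.1-fold higher, and 256 of the 261 lay in those 5. The same held for Mt2 (69 of 73), Fn1 (62 of 63), the matrix proteoglycan gene Dcn (49 of 49), the procollagen enhancer Pcolce (45 of 45), the surface protein gene Tm4sf1 (41 of 42) and the ribosomal protein gene Rps18 (70 of 76). The 12 genes highest with all members had 741 of their 767 SG-free UMIs, 96.6%, in the 5. Spp1 had opposite signs in the 2 sets of cells. It had 288 UMIs in all SG-free neutrophils against 35 in control neutrophils, a log2 ratio of 1.59, while the 47 SG-free cells had 5 UMIs and a log2 ratio of -3.23. In the control library 15 of the 35 Spp1 UMIs lay in 1 cell, and Spp1 was found in 77.6% of SG-free and 80.7% of control non-immune cells thinned to 500 UMIs, against 4.26% and 20.0% of neutrophils.

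Among the 47 and 40 neutrophils, Nampt had the highest ratio. Nampt, the enzyme of NAD salvage, had 35 UMIs in 20 SG-free cells and 5 UMIs in 5 control cells, a ratio of summed levels of 4.83 (1.89 to 15.8) and a log2 ratio of 2.202. The glucose transporter Slc2a1 had 34 UMIs in 22 cells and 8 UMIs in 6 cells, a ratio of 2.93 (1.33 to 7.34). No neutrophil held more than 4 UMIs of either gene, so no single cell made the difference. With all members the log2 ratios were 1.502 for Nampt and 1.02 for Slc2a1. Thinned to 500 UMIs, 34.0% of SG-free and 10.0% of control neutrophils kept a Nampt UMI, against 1.59% and 1.29% of non-immune cells. The genes ranked next were of low counts: the kinase genes Riok3 (21 and 3 UMIs) and Wnk1 (27 and 5), the splicing factor Srsf7 (21 and 4) and Dock2, which steers leukocyte migration (19 and 4). Outside neutrophils Nampt was 1.32-fold higher in SG-free macrophages and 1.26-fold higher in SG-free non-immune cells.

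Nfkbia, Atf3 and Gadd45b, genes induced by inflammatory or stress signals, were higher in the SG-free neutrophils, while others such as Junb and Fos were not. Nfkbia, the inhibitor of NF-kappaB that is itself induced by it, had 223 UMIs in 34 SG-free cells and 59 UMIs in 18 control cells, which is 4804 (4194 to 5477) and 1841 (1402 to 2375) CPM and a ratio of 2.61 (1.95 to 3.54). The stress transcription factor Atf3 had 88 UMIs in 26 cells and 24 UMIs in 16 cells, a ratio of 2.53 (1.60 to 4.16). Gadd45b, another stress-induced gene, had 73 and 20 UMIs, a ratio of 2.52 (1.52 to 4.36). With all members the log2 ratios were 0.62 for Nfkbia, 0.51 for Atf3 and, for Gadd45b, a ratio of 1.47 (0.89 to 2.54), so the 2-fold line was passed only without the 5 deep barcodes. The same direction was seen for Nfkbia in macrophages (1.67-fold) and in non-immune cells (2.403-fold), and for Atf3 in macrophages (1.58-fold) but not in non-immune cells (0.72-fold). For Nfkbia a thinned UMI was found in 63.8% of SG-free and 37.5% of control neutrophils, beside 29.8% and 13.8% of non-immune cells.

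**Figure D3:**
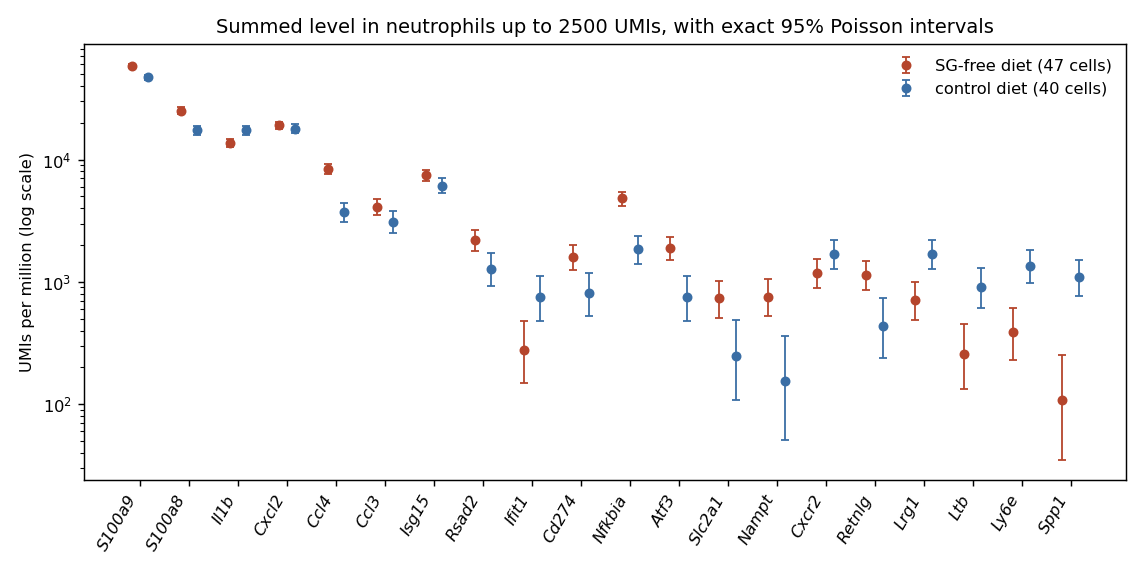
Summed level in CPM (y axis, log scale) of 20 genes in the 47 SG-free (red) and 40 control (blue) neutrophils up to 2500 UMIs, with exact 95% Poisson intervals of counting error. Among others, the intervals lie apart for Ccl4, Cd274, Nfkbia, Atf3, Slc2a1 and Nampt (higher in the SG-free library) and for Ltb, Ly6e and Spp1 (lower), and they overlap for Cxcl2, Isg15 and Cxcr2.

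The chemokine list had 7 measured genes, with a median log2 ratio of 0.40 beside 0.01 over all 625 genes. In it 2 genes were at least 2-fold higher and none lower, beside 6.72% and 5.44% over all genes. Ccl4, which draws T cells and monocytes, had 388 UMIs in 23 SG-free cells and 119 UMIs in 14 control cells, a ratio of 2.25 (1.83 to 2.79), and 98 of the 388 lay in 1 cell. With all members its ratio was 1.20 (0.977 to 1.49). Cxcl3, another ligand of Cxcr2, had 62 UMIs in 10 cells and 20 UMIs in 6 cells, a ratio of 2.14 (1.27 to 3.74), with 29 of the 62 in 1 cell, and 1.14 (0.681 to 1.998) with all members. The decoy chemokine receptor Ccrl2 had 146 and 55 UMIs, a ratio of 1.83 (1.34 to 2.55), and 1.01 (0.734 to 1.40) with all members. Cxcl2 stood at a ratio of 1.07 (0.96 to 1.19), and at 0.586 (0.527 to 0.652) with all members. Cxcl10, a ligand of Cxcr3 on T cells, had 22 UMIs in 5 cells and 27 UMIs in 2 cells, 24 of them in 1 cell. With all members the list's median log2 ratio was -0.44, with none higher and 2 lower, so its direction depends on the 5 deep barcodes. Ccl4 was higher in SG-free macrophages too, at a ratio of 1.79.

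The interleukin-1 and inflammatory list had a median log2 ratio of 0.13 over 14 genes, with 2 at least 2-fold higher, Nfkbia and Tnf, and none lower. Over all genes 6.72% were higher and 5.44% lower. With all members the median was -0.47, with none of 15 genes higher and 4 lower. Summed Il1b was lower in the SG-free neutrophils, at a ratio of 0.79 (0.70 to 0.89), and of 0.457 (0.408 to 0.512) with all members. The median cell went the other way, with 13 Il1b UMIs in the SG-free and 7 in the control library. Median depths were 987 and 773 UMIs, and the highest cell held 36 and 49 Il1b UMIs. The interleukin-1 receptor antagonist Il1rn had 91 and 63 UMIs and a log2 ratio near 0, and of -0.83 with all members. Acod1, which makes itaconate, had 200 and 107 UMIs and a ratio of 1.29 (1.02 to 1.65), and stood on the other side of equality with all members, at 0.748 (0.591 to 0.952). Tnf had only 15 and 5 UMIs.

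Interferon-induced genes stood on both sides of equality. Of 19 measured type I interferon genes none was at least 2-fold higher in the SG-free neutrophils and 3 were lower, with a median log2 ratio of -0.07. Over all genes 6.72% were higher and 5.44% lower. With all members 1 of 20 was higher and 7 were lower, with a median of -0.71, beside 23.7% and 15.6% over all genes. Isg15, a ubiquitin-like protein, had 344 UMIs in 40 SG-free cells and 196 UMIs in 32 control cells, a ratio of 1.21 (1.01 to 1.45). The antiviral enzyme Rsad2 had 102 and 41 UMIs, a ratio of 1.72 (1.18 to 2.53). Ifit1, which binds foreign RNA, had 13 UMIs in 6 cells and 24 UMIs in 8 cells, a ratio of 0.37 (0.17 to 0.76), and its relative Ifit3 had 7 and 15 UMIs, a ratio of 0.32 (0.11 to 0.84). With all members Isg15 stood at a ratio of 0.749 (0.629 to 0.893), on the other side of equality, Rsad2 at 1.10 (0.765 to 1.60), Ifit1 at 0.276 and Ifit3 at 0.27. In macrophages Isg15, Rsad2, Ifit1 and Ifit3 stood at SG-free to control ratios of 1.75, 1.95, 1.75 and 0.875. Other cells differed from macrophages. The same genes stood at 0.711, 1.26, 1.06 and 0.678 in monocytes and at 0.895, 0.485, 1.05 and 0.266 in T cells. In non-immune cells they stood at 1.24, 2.10, 2.06 and 1.33.

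The 12 measured genes of the interferon-gamma list had a median log2 ratio of 0.06, and of -0.58 with all members. Cd274, the PD-L1 gene, had 74 UMIs in 22 of 47 SG-free cells and 26 UMIs in 11 of 40 control cells, with 0 to 13 and 0 to 7 UMIs per cell. That is 1594 (1252 to 2001) and 811 (530 to 1189) CPM, a ratio of 1.96 (1.24 to 3.20) and a log2 ratio of 0.97, just below the 2-fold line. With all members the log2 ratio was 0.13, because the 5 deep barcodes added 3 Cd274 UMIs and 40485 UMIs of depth. Thinned to 500 UMIs, 40.4% (26.4 to 55.7%) of SG-free and 20.0% (9.05 to 35.6%) of control neutrophils kept a Cd274 UMI, against 1.59% and 0.955% of non-immune cells and 6.03% and 2.396% of macrophages. The intervals of the 2 neutrophil shares overlap. In macrophages Cd274 stood at 137 and 66.0 CPM, a ratio of 2.07 (1.85 to 2.33), and in non-immune cells at a ratio of 1.87 (1.76 to 1.98). As a share of UMIs, the level in neutrophils was 11.7-fold (9.06 to 14.8) above macrophages in the SG-free library. In the control library it was 12.3-fold (7.94 to 18.3) above. With all members the SG-free neutrophil level was 886 CPM, so that fold was lower. Macrophages held far more UMIs per cell, and before thinning the shares of cells with a Cd274 UMI were close. They were 46.8% of neutrophils and 51.2% of macrophages in the SG-free library, and 27.5% and 30.7% in the control library.

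Genes of the serine, glycine and one-carbon pathway, on which the diet bears, were hardly detected. The whole list had 8 UMIs in the 47 SG-free neutrophils and 13 in the 40 control neutrophils, and no gene reached the 20 UMIs needed to be measured. With all members it had 43 and 13 UMIs; Phgdh, the first enzyme of serine synthesis, had 5 and 1 UMIs, and all 5 came from 1 deep barcode. At this depth a difference in these enzymes was not detectable.

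The glycolysis list had 9 measured genes with a median log2 ratio of 0.20. Slc2a1 and the mutase Pgam1 were at least 2-fold higher, beside 6.72% of all genes. With all members 11 genes were measured, 8 of them at least 2-fold higher, with a median of 1.06, beside 23.7% of all genes higher. Ldha, lactate dehydrogenase, had 142 SG-free UMIs with all members, 107 of them in the 5 deep barcodes; without them it had 35 and 25 UMIs and a log2 ratio of -0.05. Slc16a3, which exports lactate, had 65 and 39 UMIs and a log2 ratio of 0.20, and of -0.53 with all members. In the amino acid stress list 2 of 5 measured genes, Atf3 and the amino acid transporter subunit Slc3a2 (24 and 6 UMIs), were at least 2-fold higher and none was lower; with all members none of 6 was 2-fold apart.

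The list of genes reported in tumour-adapted neutrophils had the highest median, 0.43 over 14 genes, with 3 genes at least 2-fold higher (Atf3, Hif1a and Ccl4) and 2 lower (Spp1 and Hilpda). Over all genes 6.72% were higher and 5.44% lower. The list's median with all members was 0.13, with 2 of 15 genes at least 2-fold higher and 1 lower. Hcar2, a receptor for hydroxybutyrate, had 232 UMIs in 40 SG-free cells and 93 UMIs in 24 control cells, a ratio of 1.72 (1.35 to 2.21). With all members the ratio was 0.96 (0.752 to 1.23), while macrophages stood at 2.09. Hilpda, a lipid droplet protein, had 8 and 20 UMIs, a ratio of 0.28 (0.11 to 0.65), and of 0.147 with all members.

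**Figure D4:**
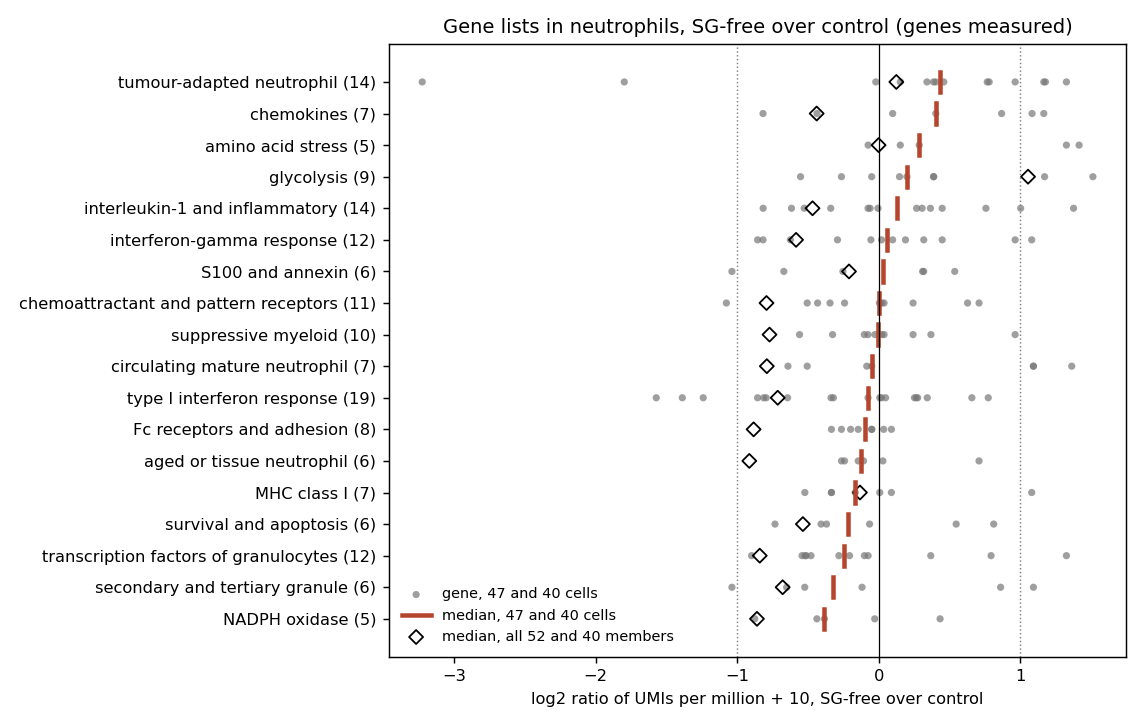
Log2 ratio, SG-free over control, of CPM + 10 (x axis) for each measured gene (grey points) of the gene lists with at least 5 measured genes (rows, number measured in brackets). Red bars are medians of the 47 and 40 neutrophils up to 2500 UMIs, which run from 0.43 to -0.38; open diamonds are medians with all 52 and 40, which lie to the left of the bars except for glycolysis (1.06) and MHC class I.

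Genes that mark circulating neutrophils split. Of 7 measured, Retnlg, Slpi and Mmp9 were at least 2-fold higher in the SG-free neutrophils and none was lower, with a median log2 ratio of -0.05. Over all genes 6.72% were higher and 5.44% lower. Slpi and Mmp9 had only 16 and 5 UMIs each. With all members none was higher and 2 were lower, with a median of -0.79. Retnlg, Cxcr2 and Csf3r belong to this list and chose the cells, so its count and median are a description only. Retnlg, one of the genes that chose the cells, stood at 1142 and 437 CPM. Cxcr2 had 55 and 54 UMIs, a ratio of 0.70 (0.47 to 1.04), and Csf3r, the receptor of the granulocyte growth factor, 82 and 60 UMIs, a ratio of 0.94 (0.67 to 1.34). With all members Retnlg stood at a ratio of 1.42 (0.779 to 2.77), Cxcr2 at 0.41 and Csf3r at 0.541. Among survival genes, Mcl1, which keeps neutrophils alive, had 199 UMIs in 42 SG-free cells and 78 UMIs in 28 control cells, a ratio of 1.76 (1.35 to 2.32). With all members Mcl1 stood at 1.01 (0.777 to 1.33). The urokinase receptor gene Plaur stood at a ratio of 1.98 (1.58 to 2.51), and at 1.09 (0.868 to 1.38) with all members. Cd14, a receptor for bacterial lipopolysaccharide, stood at 1.55 (1.23 to 1.96), and at 0.851 (0.676 to 1.08) with all members, on the other side of equality. Plaur and Cd14 stood at ratios of 1.40 and 1.30 in macrophages, 1.41 and 1.13 in monocytes, and 0.64 and 0.71 in non-immune cells.

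Genes lower in the SG-free neutrophils were mostly of low counts. Lrg1, a secreted glycoprotein of neutrophil granules, had 33 UMIs in 14 SG-free cells and 54 UMIs in 15 control cells, a ratio of 0.42 (0.26 to 0.66), and a log2 ratio of -2.12 with all members. The cytokine gene Ltb, lymphotoxin beta, had 12 UMIs in 7 cells and 29 UMIs in 14 cells, a ratio of 0.29 (0.13 to 0.58), and of 0.153 with all members. T cells express Ltb too, and a thinned UMI was found in 31.6% and 37.5% of them; a part of T cell RNA in this value was not tested. Ly6e, an interferon-induced surface protein, had 18 and 43 UMIs, a ratio of 0.29 (0.16 to 0.51), while with all members the ratio was 0.523 and 43 of 61 SG-free UMIs lay in the 5 deep barcodes. Cstdc5, a stefin family gene whose near-identical copies make its counts uncertain, had 5 and 29 UMIs, and 20 of the 29 lay in 1 control cell. The interferon-induced membrane gene Ifitm2 had 227 and 231 UMIs, a ratio of 0.68 (0.56 to 0.82).

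Other lists had few genes 2-fold apart, beside 6.72% higher and 5.44% lower over all genes. None of the measured genes of the suppressive myeloid (10), Fc receptor and adhesion (8), aged neutrophil (6), survival (6) and NADPH oxidase (5) lists was 2-fold apart either way; their median log2 ratios were between -0.38 and 0. With all members these 5 lists had medians of -0.77, -0.88, -0.91, -0.54 and -0.86 beside -0.21 over all genes. They then had 1, 3, 2, 3 and 1 genes at least 2-fold lower and 1 survival gene higher. The shares over all genes with all members were 15.6% lower and 23.7% higher. MHC class I had 7 measured genes and 1 higher, the immunoproteasome subunit Psmb9, and B2m stood at a log2 ratio of 0.01. Junb and Fos, early transcription factors, had 192 and 193 UMIs and 136 and 134 UMIs, log2 ratios of -0.54 and -0.51 (-1.34 and -1.23 with all members), and 1 of 12 granulocyte transcription factors, Atf3, was 2-fold higher and none lower; with all members none was higher and 4 of 13 were lower. The MHC class II list had 13 and 6 UMIs.

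The neutrophils of a library differed among themselves, and the measured spread was largest in a few genes. Each cell was thinned to 500 UMIs and the variance over cells was divided by the mean, for which a value of 1 is what counting alone gives; the median over 110 genes was 1.80 in the SG-free and 1.71 in the control library. Cxcl2 reached 11.7 and 11.96, Ccl4 17.3 and 6.28, S100a9 12.6 and 13.6, and Fth1, the ferritin heavy chain, 12.5 and 17.04. Isg15 stood at 6.22 and 4.46 and Rsad2 at 4.63 and 3.36. These cells therefore ranged in chemokine, ferritin and interferon-induced transcripts within both libraries. S100a9 chose the cells, so its value is a description only. At equal relative spread the measure rises with the mean, so abundant genes rank high: S100a9 had means of 29.0 and 23.5 UMIs, Rsad2 of 1.06 and 0.65.

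Some genes varied together over cells, within 1 library and at equal depth, for pairs chosen after their values were seen. Isg15 and Rsad2 had a Spearman rho of 0.64 over 47 SG-free cells and 0.59 over 40 control cells, and Ccl3 and Ccl4 of 0.55 and 0.53. S100a8 and S100a9, which chose the cells together, had 0.70 and 0.82. Il1b and Cxcl2 had 0.061 and 0.15, so cells rich in 1 were hardly richer in the other. S100a8, which chose the cells, and Nfkbia ran opposite, at -0.51 and -0.39. With all UMIs of each cell scaled to the same depth the values were -0.56 and -0.24. S100a8 takes up a part of a fixed sum of UMIs, and how far that bears on this pair was not tested. Cd274 and Isg15 had 0.41 and 0.26 at equal depth, and 0.47 and 0.43 with all UMIs of each cell scaled to the same depth.

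Cd274 was set against Rsad2 cell by cell, with all UMIs of each cell. In the SG-free library 13 of 18 neutrophils with an Rsad2 UMI (72.2%, 46.5 to 90.3%) had a Cd274 UMI, against 9 of 29 without (31.0%, 15.3 to 50.8%). In the control library it was 6 of 11 (54.5%, 23.4 to 83.3%) against 5 of 29 (17.2%, 5.85 to 35.8%). Summed Cd274 levels were 3073 against 720 CPM in the SG-free library and 1602 against 485 in the control library. Cd274 was not alone in this. Acod1 stood at 8059 against 2091 CPM in the SG-free library and at 5872 against 2293 in the control library, and Isg15 and Slfn4 were also higher in both. Cxcl2 and Il1b were higher in the SG-free library and lower in the control library, and S100a9 was lower in both. The median depth of the cells with and without Rsad2 was 908.5 and 1013 UMIs in the SG-free library and 836 and 749 in the control library. At equal depth the Spearman rho of Cd274 and Rsad2 was 0.49 in the SG-free library and 0.097 in the control library. Thinning left a Cd274 UMI in 8 of 40 control cells and an Rsad2 UMI in 10. With all UMIs of each cell scaled to the same depth, the rho was 0.51 and 0.35. Why the control value was lower after thinning was not tested.

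**Figure D5:**
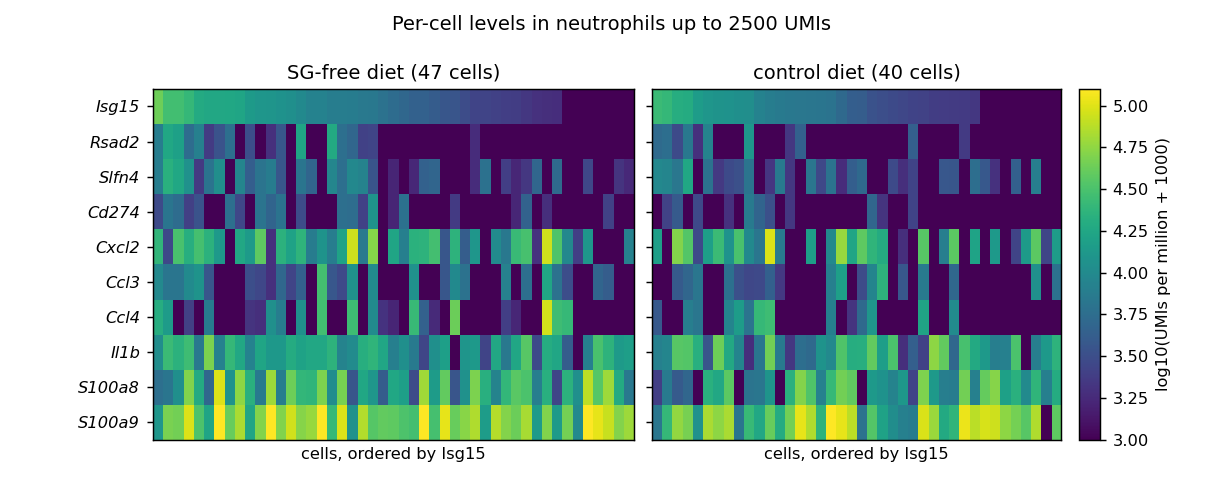
Level of 10 genes (rows) in each neutrophil up to 2500 UMIs (columns), as log10 of CPM + 1000 (colour), with 47 SG-free cells left and 40 control cells right, each ordered by Isg15. Rsad2 and Cd274 are found mainly towards the side with high Isg15, while Il1b and S100a9 are found across nearly all cells.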

How the data were processed

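Raw UMI counts per gene and barcode were deposited, made with Cell Ranger 7.1.0 per the file headers. Version 2.2.2 and the build mm10 are named in the submitters' processing notes. They hold only barcodes the authors called cells: 7999 with about 157235000 UMIs (SG-free) and 8466 with about 161332000 (control). The deposited T cell receptor contig tables were joined by barcode.

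UMIs were summed over neutrophils per library and scaled to counts per 1000000 (CPM) without T cell receptor and immunoglobulin genes. Ratios between diets are log2 of CPM + 10, for genes with at least 20 UMIs over both libraries. A count of 0 is bounded at 3 counts over a library's summed neutrophils. Intervals are exact: Poisson for levels, Clopper-Pearson for shares, conditional binomial for ratios, at 95%. Cells were thinned to 500 UMIs, and none was left out as shallower. Monocytes were barcodes with at least 2 Ly6c2 UMIs and 3 of Ccr2 and Lyz2, and T cells with at least 2 Cd3 UMIs. The non-immune cells lacked Ptprc, C1q, Cd3 and the receptor genes of the rule. No doublet caller was run.

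Genes named were the 12 highest and 12 lowest between diets, the 12 highest and 8 lowest over macrophages, the 4 most counted of each list, the rule's genes and a set list; others were chosen after their values were seen, and 1 gene the rule picks is not reported here. The members and lists were chosen with earlier results of these data known. Alternatives were other gates, pseudocounts, count filters, scalings and weightings, planned, and the limit of 2500 UMIs, added after seeing the data. Python 3.11.15, numpy 2.4.6, pandas 2.3.3 and scipy 1.17.1 were used; the scripts were tested on simulated data.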

Additional observations from a re-analysis of the deposited data

How the results depend on the processing

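No paired analysis was possible because each diet has 1 library, and the replicate numbers are only names. Values here are for all 52 and 40 neutrophils unless said otherwise; list values are median log2 ratios, SG-free over control, and the cause of a difference was not tested. With at least 500 genes per barcode, which left 25 and 4 cells, the ratio of shares was 6.49, the median of all genes 0.42, and the lists stood at 0.93 for secondary and tertiary granule, -1.82 for circulating mature, -1.06 for chemokines, 5.43 for survival, -2.005 for type I interferon, -1.87 for interferon-gamma, -0.96 for MHC class I, 5.57 for hypoxia and 1.44 for S100 and annexin genes. With S100a8 and S100a9 at 1% or more, 98 genes were 2-fold higher and 39 lower, the median of all genes was -0.011, neutrophil markers -0.35, chemokines -0.011 and granulocyte transcription factors -0.44. Without a filter on low counts 4807 and 1317 genes passed, with a median of 1.10, chemokines at 0.099 and S100 and annexin genes at 0.40; at 50 UMIs or more 110 and 50 passed. Scaling by the median of ratios gave 58 lower genes and a median of 0.089. With every cell weighted equally 136 and 56 genes passed, the median was 0.063, neutrophil markers -0.10, suppressive myeloid -0.076, chemokines 0.34, interleukin-1 0.12, transcription factors -0.42, type I interferon -0.040, interferon-gamma 0.39, and Spp1 (-0.26) changed sign, as did 25 of 125 named genes in all. Without the deepest cell of each library 88 genes were lower and chemokines stood at -0.0092. Without the members over 2500 UMIs, 42 and 34 genes passed, the median was 0.013, neutrophil markers -0.084, suppressive myeloid -0.0012, chemokines 0.40, interleukin-1 0.13, receptors 0.0057, transcription factors -0.24, type I interferon -0.075 and glycolysis 0.20, and Ldha (-0.049) and Spp1 (-3.23) changed sign. Of 104 named genes measured, 26 changed sign there, Isg15, Hcar2, Cd14, Ccl3, Cxcl2 and Il1r2 among them. With these cells also weighted equally, 51 and 35 genes passed, the median was 0.0025, neutrophil markers 0.039, suppressive myeloid 0.042, chemokines 0.48, interleukin-1 0.13, receptors -0.11, transcription factors -0.27, type I interferon 0.0024 and glycolysis 0.20, and G0s2 (0.039), Ldha (-0.21) and Spp1 (-2.99) changed sign, with 31 of 104 in all. Genes 4-fold lower than in macrophages numbered 913 with 5 CPM added, 207 with 20 added, 916 with cells weighted equally and 1304 without the members over 2500 UMIs. Shallow sums limit every low gene: a count of 0 allows 64.6 CPM in the SG-free neutrophils up to 2500 UMIs and 93.6 in the control neutrophils.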
